A study of Mus musculus with 6 samples.

Results

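Described here are the RNA levels of 10 transcription factor genes of the AP-1 group and its partners in CD4+ T cells: Fos, Fosb, Fosl2, Jun, Junb, Jund, Batf, Batf3, Bach2 and Irf4. They were taken by name, though with earlier results of these data known, and all 10 were found among the 38216 gene symbols of the table. Cells came from the spleens of C57BL/6 mice carrying an IL21-VFP reporter, on postnatal day 28, and every pool shared this strain, reporter and age. Sorting gave 3 pools of CD4+ cells, each sequenced as 2 libraries. N cells lacked both VFP and the costimulatory receptor ICOS, ACT cells carried ICOS without VFP, and ACT IL21 cells carried both. VFP marks cells that transcribe the cytokine gene Il21, and the mice were naive, so no immunization preceded the sort. Whether replicates are separate animals is not stated, so the p-values below reflect library-to-library spread alone, and this spread may be technical.

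AP-1 is a family of dimers joined through a leucine zipper. JUN proteins pair with each other or with FOS proteins, and the dimers bind short DNA elements near genes switched on by T cell receptor signaling. Fos, Fosb, Jun and Junb are immediate early genes, which are transcribed within minutes of a stimulus and can also rise when tissue is dissociated and cells are sorted. BATF and BATF3 pair with JUN proteins in place of FOS, and BATF with IRF4 binds composite elements of activated and helper T cells. BACH2 is a repressor that binds elements related to those of AP-1 and restrains effector differentiation.

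Values are TPM, a relative transcript abundance scaled by transcript length, while the number of reads behind them is unknown. The scaling lets levels of different genes be set side by side. Any bias between genes from the amplification of the RNA would remain and was not measured. At least 1 TPM was reached by 12095 to 12396 genes, depending on the library. Markers of CD4 T cells were high in every library, with Cd3e between 1274.93 and 2132.43 TPM and Cd4 between 236.07 and 566.54 TPM. Their differences between pools are given below. Of B cell markers, Pax5 was listed at 0 in all libraries and Ms4a1 did not exceed 0.24 TPM, while Ighm, the gene of the immunoglobulin M heavy chain, was between 316.56 and 593.64 TPM. Differences were tested by limma on log2(TPM + 1), with Benjamini-Hochberg adjustment over 13311 genes and a threshold of 0.05, and "rose" or "fell" is used only of differences that passed. Of the 10 genes 9 could be tested. Batf3 was listed at 0 in all 6 libraries and did not reach the minimum for testing. In pools of cells, fewer cells that express a gene and less of its RNA per cell cannot be told apart.

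The genes called in at least 1 comparison had 3 broad courses over the pools. Batf and Irf4 were higher and Bach2 lower in both ICOS+ pools than in N. Fos and Jun were lowest in ACT, and only Fos was called between ACT IL21 and ACT. Fosb was highest in ACT IL21. For Fosl2, Junb and Jund no comparison passed.

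**Figure D1:**
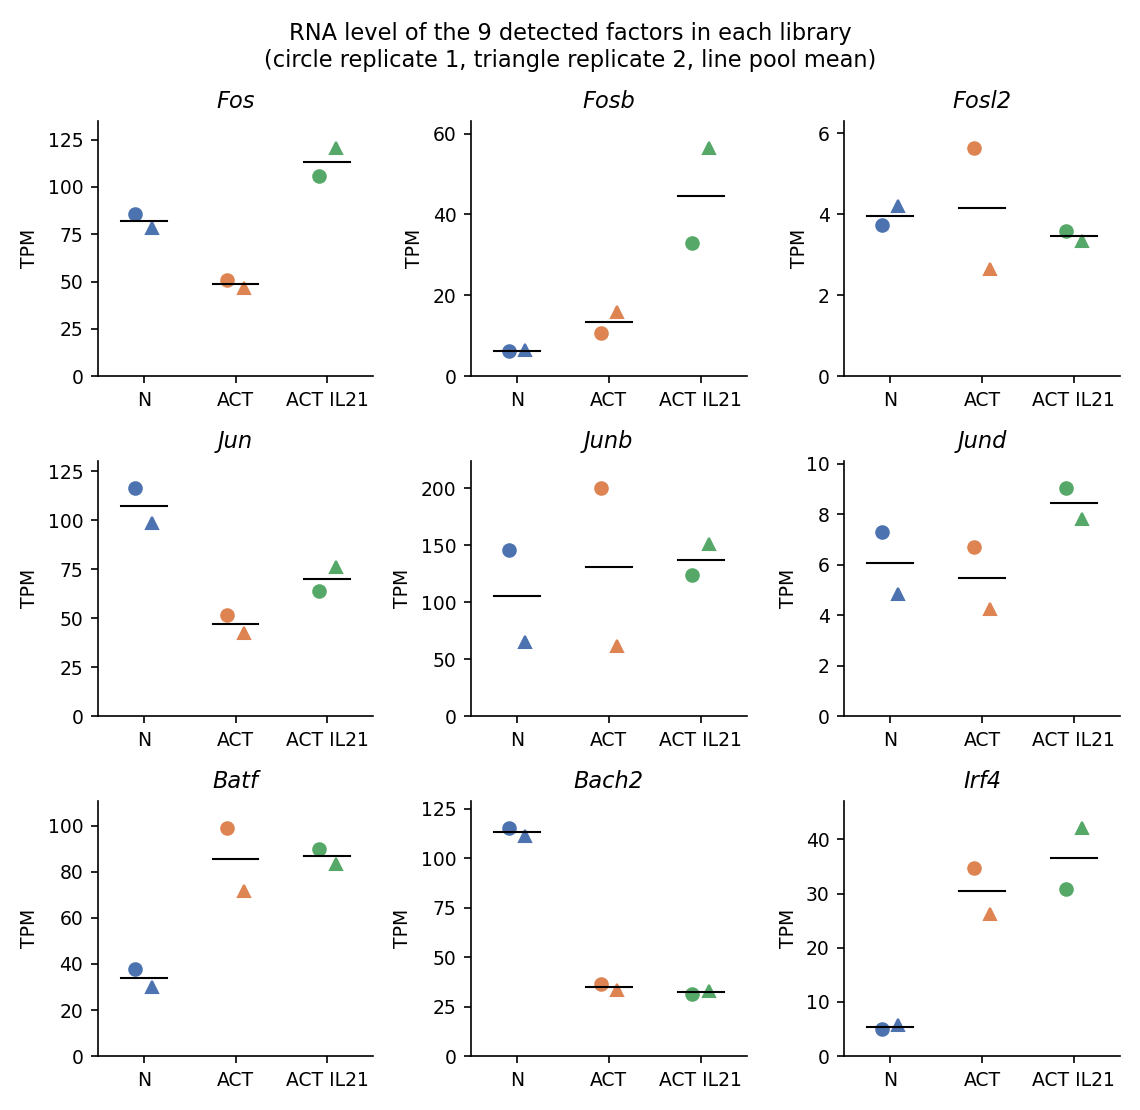
TPM (vertical axes, starting at 0) of the 9 detected genes in the N, ACT and ACT IL21 pools; circles are replicate 1, triangles replicate 2 and lines the mean of the pool. Batf and Irf4 are higher and Bach2 is lower in all 4 ICOS+ libraries than in both N libraries, Fos is lowest in ACT, and the Junb libraries of N and ACT lie far apart.

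The 120 bases before the RefSeq start (GRCm38.p6) are shown for the 3 immediate early genes called in a comparison. TGACG, the core of the cyclic AMP response element, TGACATCA, a variant of the whole element, and TATAAA are in capitals where they occur on either strand. TGACG was added to the search after the sequences had been seen.
Fos, chr12:85473770-85473889, plus strand: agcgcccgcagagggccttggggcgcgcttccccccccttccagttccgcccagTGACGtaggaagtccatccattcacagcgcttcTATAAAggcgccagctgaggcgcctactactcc
Fosb, chr7:19310046-19310165, minus strand: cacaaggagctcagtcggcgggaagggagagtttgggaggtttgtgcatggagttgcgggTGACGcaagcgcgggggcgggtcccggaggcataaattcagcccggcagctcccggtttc
Jun, chr4:95052223-95052342, minus strand: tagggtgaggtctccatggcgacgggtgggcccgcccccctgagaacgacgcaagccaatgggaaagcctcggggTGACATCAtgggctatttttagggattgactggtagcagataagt

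Fos and Fosb held TGACG at 66 to 62 and at 60 to 56 bases before the start. Jun held TGACATCA at 45 to 38 bases and no TGACG. Over the 250 bases before the start, TGACG occurred in 17.8% of 32851 RefSeq promoters, TGACATCA in 2.93% and TATAAA in 12.4%. In the same window Fos held a second TGACG (129 to 125 bases), and Junb (106 to 102) and Batf (98 to 94) held 1 each. The AP-1 element TGACTCA (4.46% of promoters), the whole cyclic AMP response element TGACGTCA (1.55%), the CArG box (1.47%), the extended BACH element (0.353%) and both forms searched of the BATF-IRF composite element (0.0974% and 0.1%) were not in this window of any of the 10 genes. Both strands were searched, and every TGACGTCA also counts as a TGACG. The RefSeq starts of Fosl2, Batf3, Jund and Bach2 lie 671, 567, 1210 and 178631 bases from the start of the gene positions given here, so for these genes the window is not the sequence before that position. A match describes letters only.

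Among the FOS genes, Fos (chromosome 12, 85473890 to 85477273, GRCm38, plus strand, protein-coding), the founding partner of JUN in AP-1, stood at 85.83 and 78.21 TPM in N, at 50.65 and 46.53 in ACT, and at 106 and 120.6 in ACT IL21. The 3 pools did not overlap, with ACT lowest and ACT IL21 highest. Fos fell in ACT against N by 0.74 on the log2 scale (SE 0.17, adjusted p = 0.0426), and it rose in ACT IL21 against ACT (1.20 ± 0.17 SE, adjusted p = 0.0136). Between ACT IL21 and N the log2 difference was 0.46 (95% interval 0.08 to 0.84, adjusted p = 0.186), which did not pass.

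Fosb (chromosome 7, 19302696 to 19310051, minus strand, protein-coding) encodes a close relative of FOS. Its levels were 6.18 and 6.46 TPM in N, 10.77 and 15.97 in ACT, and 32.91 and 56.42 in ACT IL21. Both ACT IL21 libraries were above both ACT libraries, and these were above both N libraries. Fosb rose in ACT IL21 against N (log2 difference 2.59 ± 0.35 SE, adjusted p = 0.00574). The steps from N to ACT (0.95, 95% interval 0.14 to 1.75, adjusted p = 0.188) and from ACT to ACT IL21 (1.64, 95% interval 0.84 to 2.45, adjusted p = 0.0647) did not pass.

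Fosl2 (chromosome 5, 32135801 to 32157842, plus strand, protein-coding), which encodes the FOS-related protein FRA2, was low throughout. It was at 3.73 and 4.2 TPM in N, 5.64 and 2.66 in ACT, and 3.59 and 3.33 in ACT IL21. The ACT libraries enclosed all others, and the 95% intervals of its log2 differences reached about 1 in either direction (from -1.04 to 1.02 for ACT against N). Its relative Fosl1 did not exceed 0.56 TPM in any library.

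Among the JUN genes, Jun (chromosome 4, 95049034 to 95052222, minus strand, a protein-coding gene with 1 exon) was at 116.44 and 98.42 TPM in N, 51.62 and 42.51 in ACT, and 63.71 and 76.19 in ACT IL21. N was highest and ACT lowest, with no overlap. Jun fell in ACT against N (log2 difference -1.18 ± 0.19 SE, adjusted p = 0.0121). In ACT IL21 it lay between the other pools, at -0.61 against N (95% interval -1.06 to -0.17, adjusted p = 0.132) and 0.56 against ACT (95% interval 0.12 to 1.01, adjusted p = 0.225), neither of which passed. An antisense gene, Junos, overlaps Jun, and the strand setting of the counting is not given in the sources used here, so reads of the pair cannot be told apart.

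Junb (chromosome 8, 84974484 to 84978718, minus strand, protein-coding) encodes a JUN protein that pairs with BATF in helper T cells. It was at 145.75 and 65.39 TPM in N, 200.09 and 61.97 in ACT, and 123.96 and 150.7 in ACT IL21. All pools overlapped, because replicate 1 exceeded replicate 2 by 2.23 times in N and 3.23 times in ACT. These differences between libraries of 1 pool were larger than those of 95.1% of tested genes in N and 95.3% in ACT. The 95% interval of the Junb difference ran from -1.05 to 1.43 for ACT against N and from -0.95 to 1.53 for ACT IL21 against ACT (log2), so both intervals hold sizeable changes in either direction. Leaving out ACT replicate 1 gave a log2 difference of -0.65 between ACT and N, and leaving out ACT replicate 2 gave 1.03. Junb shares genomic sequence with Prdx2 on the opposite strand, which was between 48.61 and 89.56 TPM, and without strand their reads cannot be told apart where they overlap.

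Jund (chromosome 8, 70698949 to 70700616, plus strand, protein-coding, 1 exon) was at 7.28 and 4.83 TPM in N, 6.72 and 4.26 in ACT, and 9.04 and 7.83 in ACT IL21. Both ACT IL21 libraries were above the rest, but no comparison passed. Its antisense neighbour Gm11175 was listed at 0 in all libraries.

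The difference between libraries of 1 pool was not shared by all immediate early genes. Of the 9 tested factors, 6 were higher in replicate 1 in N, 8 in ACT and 3 in ACT IL21. Of 31 other genes that respond within minutes or to handling, 21, 17 and 10 were higher in replicate 1. The share over all genes was not counted, so these counts cannot be read as particular to the factors. The median size of the log2 difference was 0.202, 0.461 and 0.185 for the factors, and 0.266, 0.409 and 0.3 over all tested genes. For Fos, replicate 1 minus replicate 2 was 0.13, 0.12 and -0.18 on the log2 scale in N, ACT and ACT IL21, and for Bach2 it was 0.05, 0.11 and -0.06. For Junb it was 1.14 and 1.67 in N and ACT, and -0.28 in ACT IL21. Summed markers of erythroid cells were 188.51, 182.6 and 360.9 TPM in replicate 1 of N, ACT and ACT IL21, and 68.18, 99.94 and 135.31 TPM in replicate 2. Junb followed this order in N and ACT and not in ACT IL21, and the part of erythroid RNA in it was not tested.

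**Figure D2:**
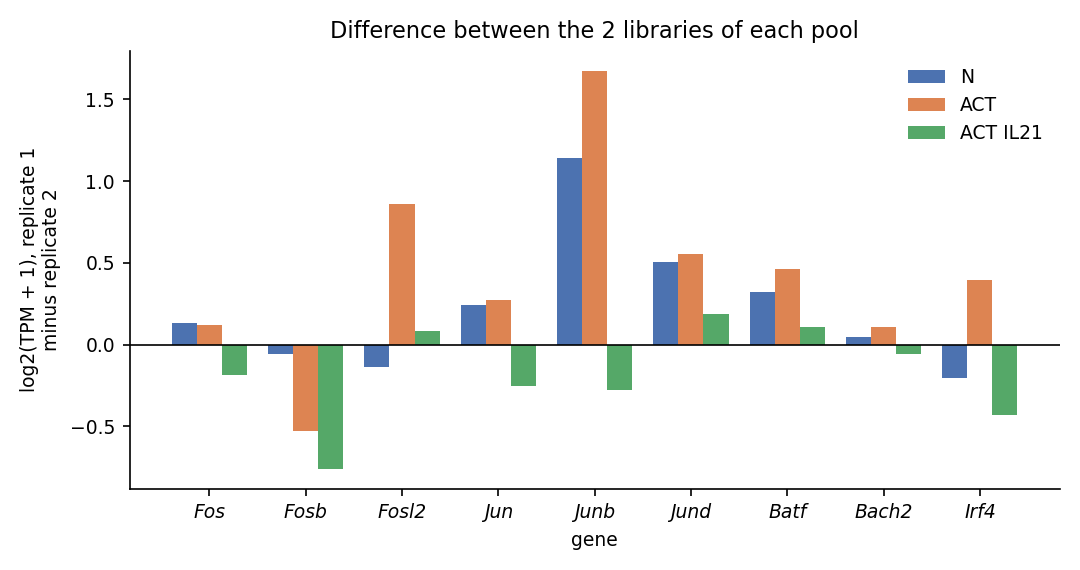
Difference between the 2 libraries of each pool, replicate 1 minus replicate 2 on the log2(TPM + 1) scale (vertical axis), for each gene (horizontal axis) and pool (colour). Junb in N (1.14) and ACT (1.67) has the tallest bars, while Fos (0.13, 0.12 and -0.18) and Bach2 (0.05, 0.11 and -0.06) have short bars.

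Batf (chromosome 12, 85686669 to 85709087, plus strand, protein-coding), which encodes the BATF partner of JUN, was at 37.94 and 30.18 TPM in N, 99.02 and 71.66 in ACT, and 90.08 and 83.45 in ACT IL21. All 4 ICOS+ libraries were above both N libraries, and the ACT libraries enclosed those of ACT IL21. Batf rose in ACT (log2 difference 1.29 ± 0.22 SE, adjusted p = 0.013) and in ACT IL21 against N (1.33 ± 0.22 SE, adjusted p = 0.0128). Between the ICOS+ pools it differed by 0.04 (95% interval -0.46 to 0.54, adjusted p = 0.955), so a change of up to about 0.5 on the log2 scale is within the interval.

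Batf lies 209.4 kb beyond Fos on the same chromosome, and Jdp2, the gene of another leucine zipper protein that pairs with JUN, lies between them. Jdp2 was at 0 and 0.2 TPM in N, 0.7 and 0.99 in ACT, and 1.29 and 1.78 in ACT IL21, and no comparison passed. The neighbours thus stood at different levels, and Fos and Batf went opposite ways in ACT against N. Batf3 (chromosome 1, 191097847 to 191108945, plus strand, protein-coding), a gene known for its role in dendritic cells, and Batf2 were listed at 0 in every library.

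Irf4 (chromosome 13, 30749226 to 30766976, plus strand, protein-coding) encodes the partner of BATF on composite elements. It was at 4.93 and 5.82 TPM in N, 34.64 and 26.15 in ACT, and 30.92 and 42.1 in ACT IL21. Every ICOS+ library was more than 4 times the highest N library, and the ICOS+ pools overlapped. Irf4 rose in ACT (log2 difference 2.29 ± 0.29 SE, adjusted p = 0.00347) and in ACT IL21 against N (2.54 ± 0.29 SE, adjusted p = 0.00292), and ACT IL21 differed from ACT by 0.25 (95% interval -0.41 to 0.92, adjusted p = 0.732).

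Bach2 (chromosome 4, 32238804 to 32586108, plus strand, protein-coding) is the repressor of the group. It was at 115.35 and 111.51 TPM in N, 36.23 and 33.54 in ACT, and 31.62 and 32.92 in ACT IL21. The N libraries were far above all others, and ACT IL21 was just below ACT without overlap. Bach2 fell in ACT (log2 difference -1.67 ± 0.17 SE, adjusted p = 0.00146) and in ACT IL21 against N (-1.78 ± 0.17 SE, adjusted p = 0.0015), while ACT IL21 differed from ACT by -0.11 (95% interval -0.51 to 0.29, adjusted p = 0.818). Its relative Bach1 was at 14.97 and 14.25 TPM in N, 30.88 and 19.58 in ACT, and 7.56 and 5.26 in ACT IL21, and it fell in ACT IL21 against ACT (-1.81, adjusted p = 0.0404). An antisense gene, Bach2os, overlaps Bach2, and without strand their reads cannot be told apart where they share sequence.

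**Figure D3:**
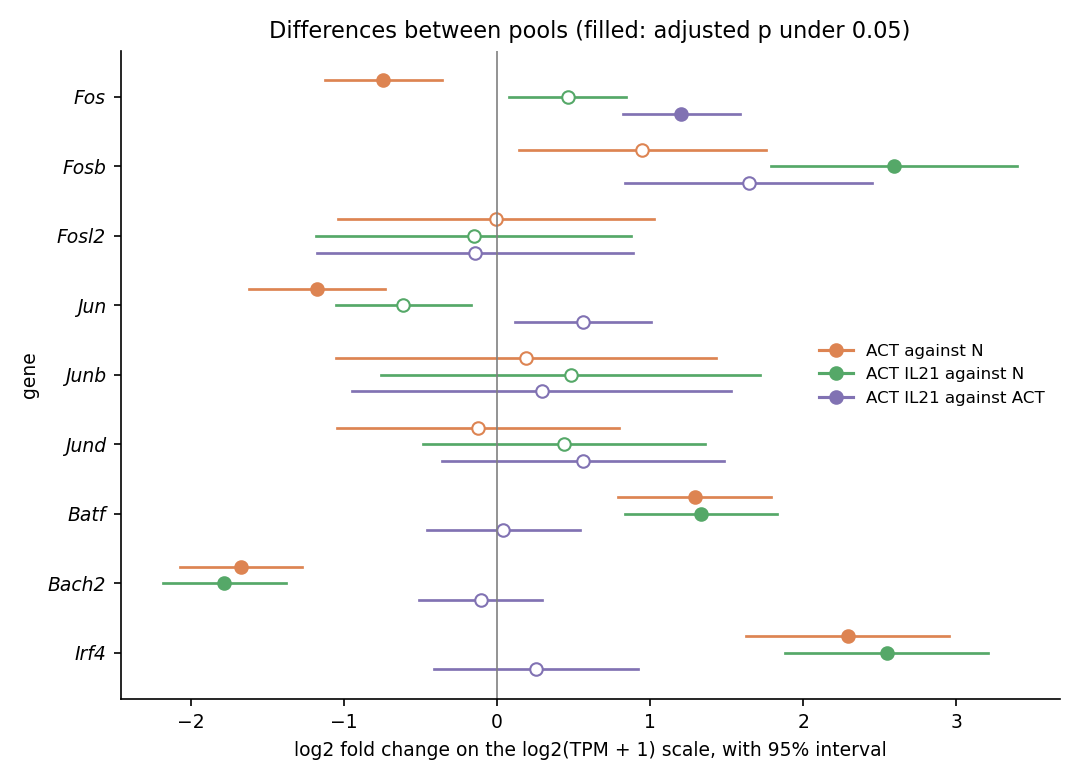
Log2 differences between pools on the log2(TPM + 1) scale (horizontal axis) with 95% intervals for the 9 tested genes, filled where the adjusted p was under 0.05. Batf, Irf4 and Bach2 differ from N in both ICOS+ pools and cross 0 between ACT IL21 and ACT, where Fos is filled at 1.20.

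In ACT against N, 5 of the 9 tested genes passed, where 5.58% of all tested genes passed. Batf and Irf4 were higher (4.15% of all genes were) and Fos, Jun and Bach2 lower (1.43% of all genes). In ACT IL21 against N, 4 of 9 passed, against 5.09% of all genes. Batf, Irf4 and Fosb were higher (3.82% of all genes) and Bach2 lower (1.26%). These comparisons share the N libraries. In ACT IL21 against ACT, Fos alone passed (1 of 9, against 1.95% of all genes, 0.796% higher and 1.15% lower), and 3 genes had an unadjusted p under 0.05. The libraries of the pools did not overlap for 6 of the 9 genes in ACT against N, 3 higher and 3 lower, where 47% of all genes did not (25.2% higher, 21.9% lower). They did not overlap for 8 in ACT IL21 against N, 5 higher and 3 lower, against 51.4% (31.5% higher, 19.9% lower). They did not overlap for 5 in ACT IL21 against ACT, 4 higher and 1 lower, against 41.8% (24.5% higher, 17.3% lower). The median log2 difference of the 9 genes was -0.01, 0.46 and 0.29, beside 0.02, 0.1 and 0.08 over all genes.

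With any 1 of the 6 libraries left out, Bach2 passed against N in both comparisons (adjusted p at most 0.0465). Irf4 in ACT lost its call without N replicate 1 (adjusted p = 0.0548), and in ACT IL21 without N replicate 1 (0.0506) or ACT IL21 replicate 1 (0.0537) or 2 (0.0722). Batf in ACT was lost without either N replicate, ACT replicate 1 or either ACT IL21 replicate (adjusted p up to 0.146), and in ACT IL21 Batf and Fosb were each lost without either library of N or of ACT IL21 (up to 0.149 and 0.0973). Jun in ACT was lost without N replicate 1 (0.15), N replicate 2 (0.086) or ACT replicate 2 (0.0537). Both calls of Fos were lost with any library left out, at adjusted p of 0.0835 to 0.286 for ACT against N and 0.063 to 0.162 for ACT IL21 against ACT.

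Markers of T cells and of other cells moved with the pools. Of 14 T cell genes, 1 fell in ACT against N, where 1.43% of all genes fell. It was Cd247 (-0.75, adjusted p = 0.0221), which rose in ACT IL21 against ACT (0.94, adjusted p = 0.0205). Cd4 rose in ACT IL21 against N (0.71, adjusted p = 0.0301) and against ACT (1.13, adjusted p = 0.0103). Cd28 rose in ACT IL21 against N (0.94, adjusted p = 0.00899). In ACT IL21 against N and against ACT, 3.82% and 0.796% of all genes rose. The summed level of 14 natural killer and NKT cell genes was 56.54 and 65.44 TPM in N, 602.99 and 652.74 in ACT, and 60.78 and 70.98 in ACT IL21. Of the 12 tested, 6 rose in ACT against N, where 4.15% of all genes rose. Ncr1, a defining natural killer cell gene, was at most 1.06 TPM, and Zbtb16, a factor of NKT cells, was at 40.05 and 27.31 TPM in ACT and at most 5.91 elsewhere. Foxp3, the factor of regulatory T cells, which was looked up after the values were seen, was at 22.19 and 19.38 TPM in N, 65.43 and 51.87 in ACT, and 1.57 and 2.69 in ACT IL21. The part of NKT or regulatory T cells in the ACT values was not tested. Of the 12 natural killer and NKT cell genes, 1 rose and 2 fell in ACT IL21 against N (3.82% and 1.26% of all genes). The gene that rose was Klrb1c, which encodes the receptor NK1.1, at 2.56 and 2.38 TPM in N, 166.08 and 177.29 in ACT, and 25.49 and 25.7 in ACT IL21 (adjusted p = 0.000419 for ACT IL21 against N). Klrd1, a receptor gene, and Prf1, the perforin gene, fell (log2 differences -1.80 and -2.95, adjusted p = 0.0198 and 0.0363). In ACT IL21 against ACT, 5 of the 12 fell and 0 rose, where 1.15% of all genes fell and 0.796% rose. Summed myeloid and dendritic cell genes were between 34.78 and 79.1 TPM, mostly from Cst3, with S100a8, S100a9, Ly6g and Siglech listed at 0 throughout. Summed B cell genes were between 320.52 and 616.93 TPM, nearly all from Ighm, which did not pass in any comparison, and 4 of the 12 listed could be tested, of which Cd74 rose in ACT (2.26, adjusted p = 0.0119) and Cd22 in ACT IL21 against N (3.96, adjusted p = 0.00344).

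The order of levels within a pool shifted. In N the most abundant of the genes were Bach2 (mean 113 TPM), Jun (107) and Junb (106), whose library ranges overlapped, followed by Fos (82) and Batf (34.1), with Fosb, Jund, Irf4 and Fosl2 between 3.97 and 6.32. In ACT Junb (131) and Batf (85.3) led and overlapped, followed by Fos and Jun, which overlapped too, then Bach2 (34.9) and Irf4 (30.4), also overlapping. In ACT IL21 Junb (137) and Fos (113) led without overlap, followed by Batf (86.8) and Jun (70). There Bach2 (32.3) was behind Fosb (44.7) and Irf4 (36.5), and the libraries of these 3 genes overlapped.

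The ratio of Batf to Bach2 within a library was 0.329 and 0.271 in N, 2.73 and 2.14 in ACT, and 2.85 and 2.54 in ACT IL21. The TPM of Bach2 thus exceeded that of Batf in both N libraries, and Batf exceeded Bach2 in all 4 ICOS+ libraries. Fosb made up 6.46% and 7.27% of the summed Fos, Fosb and Fosl2 level in N, 16.1% and 24.5% in ACT, and 23.1% and 31.3% in ACT IL21. That sum was 95.74 and 88.87 TPM in N, 67.06 and 65.16 in ACT, and 142.5 and 180.35 in ACT IL21, so the larger Fosb share stood beside a lower total in ACT and a higher total in ACT IL21. Fos to Jun, a ratio chosen after its values were seen, was 0.737 and 0.795 in N, 0.981 and 1.095 in ACT, and 1.66 and 1.58 in ACT IL21. Jun made up 43.2% and 58.4% of the summed JUN level in N, 20% and 39.1% in ACT, and 32.4% and 32.5% in ACT IL21, and Jund at most 4.6%. No test was made of these ratios and shares.

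**Figure D4:**
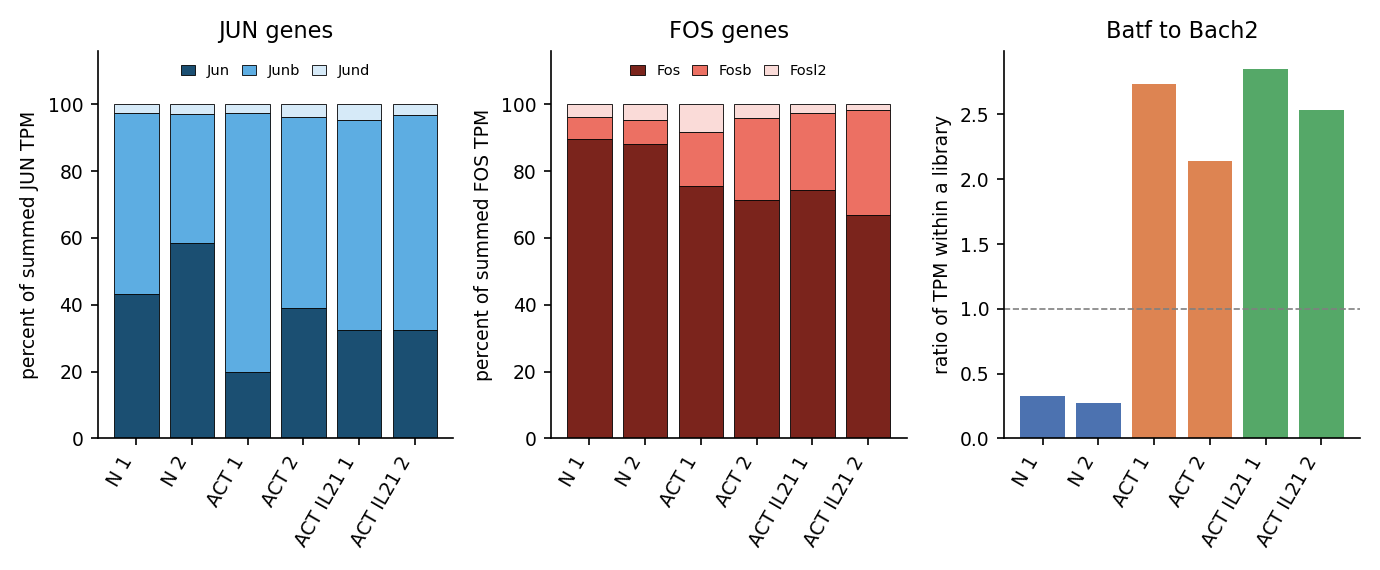
Share of each gene in the summed JUN (left) and FOS (middle) TPM of each library, and ratio of Batf to Bach2 TPM within each library (right, dashed line at 1). The Fosb share is at most 7.27% in N and at least 16.1% in the ICOS+ libraries, and Batf to Bach2 is below 1 in N alone.

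Genes whose course over the 6 libraries was nearest to a member were ranked among 8365 other genes by the distance between mean-centred log2(TPM + 1) values, as a description. Nearest to Bach2 were Pdk1, a pyruvate dehydrogenase kinase gene (218, 74.4 and 62.3 TPM on average in N, ACT and ACT IL21), Dapl1 and Treml2, with distances of 0.23 to 0.45. Irf4 lay nearest to Racgap1, a cytokinesis gene, Ybx3, and Nt5e, the ectonucleotidase gene (12.9, 57.8 and 73 TPM). Batf was nearest to Plekho2, Dennd4c and the stress response gene Gadd45b (4.82, 12.4 and 11.5 TPM). Fos was nearest to Pip4k2a, a phosphoinositide kinase gene (187, 106 and 226 TPM), Tbc1d8b and Aff3, and Jun to Zbtb21, Impdh1 and Foxo1, a factor of T cell quiescence (296, 152 and 212 TPM). For Fosb the nearest genes, Chek1, Ly96 and Tbc1d4, were farther away, at 0.71 to 0.77.

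Other leucine zipper genes were mostly not called. Of 23 listed, 19 were tested, and 2 rose in both ICOS+ pools against N, where 4.15% and 3.82% of all genes rose. They were Maf, a driver of Il4 and Il21 (1.24 and 1.64 TPM in N, 63.92 and 62.79 in ACT, 100.35 and 107.29 in ACT IL21), and Atf6, a sensor of the unfolded protein response (1.72 and 1.91 on the log2 scale, adjusted p = 0.0149 and 0.0105). In ACT IL21 against ACT, 1 fell, Bach1, where 1.15% of all genes fell. The genes of small MAF proteins, partners of BACH2, did not pass, with Mafk between 10.07 and 21.6 TPM. Mafg was at 1.96 and 3.11 TPM in N, 5.43 and 5.15 in ACT, and 8.96 and 12.09 in ACT IL21. Its log2 difference for ACT IL21 against N was 1.71, just short of the threshold (adjusted p = 0.0517 in limma).

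Of 21 kinase and transcription factor genes listed as inputs or partners of Fos and Jun, 1 rose in each ICOS+ pool against N. Over all genes 4.15% rose in ACT and 3.82% in ACT IL21 against N. The gene was Nfatc1, a calcium-regulated partner of AP-1 (1.13, adjusted p = 0.00829 in ACT, and 1.83, adjusted p = 0.00129 in ACT IL21). Of these 21, 0 passed in limma in ACT IL21 against ACT, where 1.95% of all genes passed. There 4 of the list had an unadjusted p under 0.05. The list's median log2 differences were 0.01, 0.26 and 0.2. Srf, the serum response factor gene, was between 9.34 and 20.59 TPM, and Elk4, its cofactor, between 350.34 and 532.41 TPM. Of 9 genes of JUN and FOS protein turnover and cofactors, 1 rose in ACT against N, where 4.15% of all genes rose. It was Ndfip1, an activator of the ubiquitin ligase ITCH (0.95, adjusted p = 0.0164). No other comparison in the list passed (unadjusted p under 0.05 for 2 in ACT IL21 against N and 0 in ACT IL21 against ACT).

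None of the 8 other interferon regulatory factor genes passed in limma in any comparison, where 5.58%, 5.09% and 1.95% of all genes passed. An unadjusted p under 0.05 was reached by 2, 1 and 1 of the 8. Irf8, the closest relative of Irf4, was between 0.52 and 6.01 TPM, and Irf1 between 81.02 and 138.76 TPM.

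Of 33 other genes that respond within minutes or to handling, 31 were tested. In ACT against N 2 of the 31 passed, where 5.58% of all genes did, and both rose, Nfkbia (0.91, adjusted p = 0.0309) and Dusp1 (1.22, adjusted p = 0.0332). Egr2 rose (1.82, adjusted p = 0.00803) and Myc fell (-1.41, adjusted p = 0.0297) in ACT IL21 against N, where 5.09% of all genes passed. In ACT IL21 against ACT, where Fos rose and 1.95% of all genes passed, 0 passed in limma, and 7 had an unadjusted p under 0.05. Their median log2 differences were 0.05, 0.26 and 0.16. Egr1 was at 54.53 and 49.91 TPM in N, 45.92 and 41.77 in ACT, and 69.2 and 78.24 in ACT IL21, the same order of pools as Fos, and did not pass (0.74 for ACT IL21 against ACT, adjusted p = 0.0908). The heat shock genes Hspa1a and Hspa1b were at 12.52 and 16.75, and 8.79 and 15.48 TPM in ACT IL21, above their levels in all other libraries (at most 5.9), and did not pass. The part of cell handling in the levels of Fos, Fosb and Jun was not tested.

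Genes reported as repressed by BACH2 or bound by BATF with IRF4 included many that moved. The list was drawn up with earlier results of these data known, holds the sort genes Icos and Il21, and is no independent evidence of its direction. Of 28 tested, 25 rose and none fell in ACT against N, with a median of 3.11, where 4.15% of all genes rose and 1.43% fell. In ACT IL21 against N 16 rose and 1 fell (median 2.05), and in ACT IL21 against ACT 2 rose and 11 fell (median -0.98). Over all genes 3.82% rose and 1.26% fell in the former, and 0.796% rose and 1.15% fell in the latter. Without Icos and Il21, 24 of 26 rose in ACT, 14 rose and 1 fell in ACT IL21 against N, and 1 rose and 11 fell between the ICOS+ pools.

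Some targets were called between the ICOS+ pools and others were not. The chemokine receptor gene Ccr4 (1.84 and 2.55 TPM in N) was at 167.85 and 122.84 TPM in ACT and 145.58 and 131.67 in ACT IL21. S100a4, a calcium-binding protein gene, was between 385.33 and 496.74 TPM in all 4 ICOS+ libraries, and neither gene passed between the ICOS+ pools (adjusted p = 0.945 and 0.924). Prdm1, which encodes BLIMP1, was at 8.49 and 8.36 TPM in N, 38.64 and 45.86 in ACT, and 10.51 and 13.29 in ACT IL21, and fell in ACT IL21 against ACT (-1.75, adjusted p = 0.0215). Il2ra, the interleukin-2 receptor alpha chain gene, fell there as well (-3.83, adjusted p = 0.0019), as did Cxcr6 (-4.20, adjusted p = 0.0019), a chemokine receptor gene. Bcl6, the follicular helper factor that opposes BLIMP1, rose from 24.02 and 19.9 TPM in ACT to 55.65 and 48.69 in ACT IL21 (1.21, adjusted p = 0.0342).

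**Figure D5:**
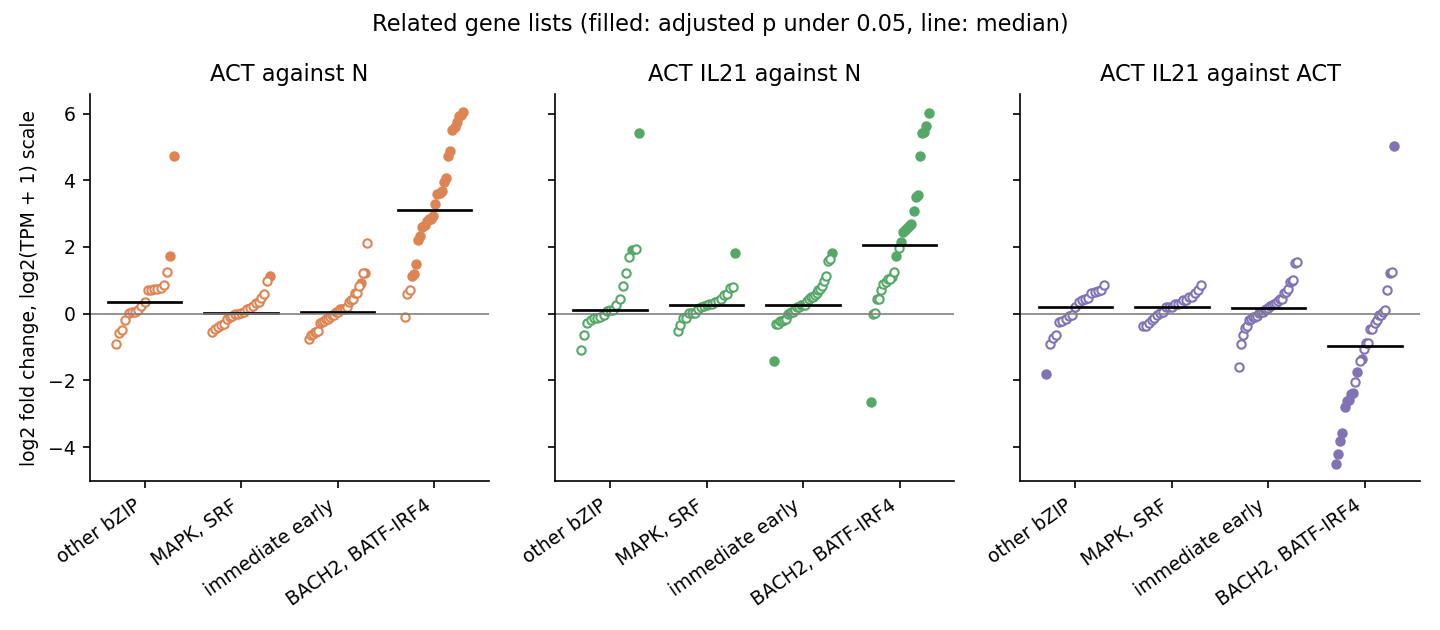
Log2 differences (vertical axis, log2(TPM + 1) scale) of the tested genes of 4 related lists in each comparison, ordered by size within a list, filled where the adjusted p was under 0.05, with a line at the list's median. The list of BACH2 and BATF-IRF4 targets has medians of 3.11, 2.05 and -0.98, and the medians of the other lists lie between 0.01 and 0.34.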

How the data were processed

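RNA was measured in 6 libraries, 2 for each of 3 sorted pools. Per the labels' protocols, Qiagen RNeasy gave the RNA, and NuGEN Ovation amplified its polyadenylated part. The authors deposited TPM values, with a column for every library. The submitters' processing notes list Trimmomatic, Bowtie, RSEM and GRCm38, all unversioned. Neither annotation release nor strand setting is given in the sources used here. TPM keeps no depth, so no counting interval is given, and its fixed total ties each gene to all others.

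The 38355 entries were summed to 38216 symbols, and no member had a repeated symbol. A gene was tested if 2 or more libraries reached 1 TPM (13311 genes). Values were log2(TPM + 1), a scale that understates changes of low genes, and were fitted with limma 3.58.1 (R 4.3.3). One model held all 6 libraries and the pool, with an intensity trend, two-sided tests, 3 residual and 4.841 prior degrees of freedom, and Benjamini-Hochberg adjustment within each of 3 comparisons. The fit was also run on simulated data with independent noise in each library, which cannot show how it handles spread shared between libraries.

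The members and lists were chosen with earlier results of these data known. By rule, all members were named. The rule for lists was up to 4 genes with the smallest p in a comparison, or the most abundant gene where none passed. Not all of these are named here, and Bhlhe40, Ccr9, Klrg1, Xcl1 and Klrk1 are among those left out. Other named genes were chosen after their values were seen. Likeness used genes with a mean of at least 5 TPM. Gene positions are from GENCODE M21 (GRCm38), and promoters from RefSeq (GRCm38.p6), where all 10 members matched. Alternatives changed the pseudocount, filter, scaling, trend, libraries in the fit and replicate block.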

Additional observations from a re-analysis of the deposited data

How the results depend on the processing

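Over 429 combinations of a gene, comparison and alternative, 386 kept their side of the threshold, 41 lost a call, 2 gained one, and no called difference changed sign. Scaling changed none of the members' calls, although quantile normalization moved the median of all genes in ACT IL21 against N from 0.1 to -0.05. Not called were 4, 5 and 8 of the 9 tested genes in ACT against N, ACT IL21 against N and ACT IL21 against ACT. These could not lose a call and are among the 386, which therefore do not measure how stable the calls were. Calls of members, in the same order, were 5, 4 and 1. Leaving out 1 library gave 1 to 3, 1 to 4, and 0 (2 to 4 at an unadjusted p in limma). A left-out library removes a residual degree of freedom, also where it belongs to neither pool compared. Without the intensity trend 2, 3 and 0 members passed (2 unadjusted in the last), with Batf losing both its calls (adjusted p = 0.0624 and 0.0628). With only the pools compared 3, 4 and 0 passed (3 unadjusted in the last). With at least 5 TPM required, 2 passed in ACT IL21 against ACT, Fos and Fosb (Fosb adjusted p = 0.0494). Without a filter Fos lost its call in ACT against N (adjusted p = 0.0597).

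Over all genes the counts were 743, 677 and 259. They were 469, 410 and 124 without a filter, and 205 to 526, 75 to 728 and 0 to 81 with 1 library left out. The 0 arose without ACT IL21 replicate 1, where 1631 genes had an unadjusted p under 0.05. With only the pools compared, 417 genes passed in ACT against N and 92 in ACT IL21 against ACT.

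Whether the replicate numbers pair the libraries is not stated. Deviations from the pool mean correlated across genes at 0.21 between N and ACT, -0.004 between N and ACT IL21, and 0.001 between the ICOS+ pools. With 2 libraries per pool, these correlations cannot settle whether libraries were paired. With the number as a replicate block, 784, 732 and 284 genes passed, and 5, 4 and 2 members, the second being Fosb in ACT IL21 against ACT (adjusted p = 0.0396). Depth is unknown, which limits what can be said of Fosl2, Jund and the genes listed at 0.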
